A study of Mus musculus with 16 samples.

Results

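The genes described here encode 3 groups of enzymes that modify foreign compounds, steroids, bile acids and fatty acids: cytochromes P450 (Cyp genes), UDP-glucuronosyltransferases (Ugt genes) and cytosolic sulfotransferases (Sult genes). They were chosen by name and level, as protein-coding genes whose symbol has the form of a family member and whose value reached 10 normalized counts in at least 4 of 16 libraries. Of 55421 genes in the table, 136 carry such a name and 45 reached that level: 28 of 94 Cyp genes, 12 of 21 Ugt genes and 5 of 21 Sult genes. The level was read over libraries of both genotypes together, so a gene present in 1 genotype alone could enter. Of the 45 members, 12 reached 10 in KO libraries only and 2 in WT libraries only, so that a genotype difference in these 14 follows from how they were chosen and is given as a description without a p-value. The 12 were Cyp1a1, Cyp1a2, Cyp26a1, Cyp27a1, Cyp2c68, Cyp2j5, Cyp2j9, Cyp3a16, Sult1a1, Ugt1a10, Ugt1a9 and Ugt2b1. The 2 were Cyp27b1 and Cyp2c55.

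The cells were mouse hepatic progenitor cells, also named oval cells in the series text, with the source given as liver progenitor cells. The 4 groups were Ptpn1+/+ cells (WT) and Ptpn1-/- cells (KO), each as a control or after palmitic acid at 400 µM for 8 h, with 4 libraries per group. Ptpn1 encodes PTP1B, a tyrosine phosphatase that dampens insulin receptor and JAK signalling, and palmitic acid is a saturated fatty acid used to load liver cells with lipid. The labels do not say what the controls received in place of palmitate, how many cell lines stand for a genotype or whether replicates were separate cultures. Genotype and cell line therefore cannot be told apart, and a p-value here sets a difference against the variation among such libraries, some of which may be technical.

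In the liver, P450s insert oxygen into a substrate with electrons passed on from NADPH by the reductase POR or, in mitochondria, by ferredoxin. Glucuronosyltransferases then attach glucuronic acid from UDP-glucuronic acid, and sulfotransferases attach sulfate from PAPS, which makes the product soluble enough for bile or urine. Mature hepatocytes hold most of these enzymes, under the control of nuclear receptors and of the factor HNF4A, and they gain many of them late in development. Other P450s act on the body's own signals: they make bile acids from cholesterol, clear retinoic acid, activate vitamin D and turn arachidonic acid into lipid mediators.

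Library depth was 21553952 to 35693442 gene reads. The Ptpn1 mRNA was at 1928, 1972, 1960.3 and 1885 normalized counts in WT control and at 327, 351, 328 and 312 in KO control, replicates 1 to 4 in this order, here and below. KO libraries thus held 17% of the WT mean in control and 15.8% after palmitate, with no overlap (exact permutation test, two-sided, p = 0.0286 in each condition, the smallest that 70 assignments allow). Replicate 1 of KO palmitate stood further from its 3 companions (chi-square per gene 5.69 to 6.69) than these from each other (2.24 to 2.94).

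The cell markers differed between the genotypes along with the enzymes. The summed level of 14 fibroblast and stellate cell markers was 137866 to 168640 normalized counts in WT libraries and 2842 to 3993 in KO libraries, with all 10 tested members lower in KO control and Lrat at 0 throughout. The sum of 16 hepatocyte markers was 5449 to 5931 in WT and 75247 to 87602 in KO, where albumin (Alb) averaged 3638 in control against 1.43 in WT. Of the 10 hepatocyte markers tested, 9 were higher in KO control, and Tat averaged 47.8 in WT control and 48.65 in KO control. Of all 16 markers, 8 averaged 10 or more in WT control and 10 did in KO control. G6pc and Pck1 were at 0 in WT control and averaged only 2.0 and 4.9 in KO control. Ahsg went the other way, at 6.1 in WT control and 3.56 in KO control. Apoh and Cps1 averaged 1.93 and 0.80 in KO control, and Hpd was at 0 in KO. Progenitor and cholangiocyte markers were high in both genotypes (Krt19 at 3407 in WT control and 4545 in KO control, Sox9 at 342 and 1861), with 13 of 14 tested members higher in KO control. The oval cell surface marker Epcam was, however, at 0 in WT and averaged 1.77 in KO control, and Prom1 averaged 19.1 in WT control and was at 0 in KO control. Macrophage and leukocyte markers summed to 1614 to 2055 in WT and 2718 to 3375 in KO, carried by Cd14 and Csf1r, while Adgre1, Clec4f, Marco and Cd3e were at 0 throughout. Endothelial markers summed to 867 to 969 in WT and 252 to 302 in KO, but of 5 tested members 2 were higher and 2 lower in KO control. Eng averaged 845 in WT control and 69.8 in KO control, while Esam averaged 14.9 and 164. Over all genes tested, 37.8% were higher in KO control and 39.3% lower. A marker could reach the level for testing through a single genotype, as Alb did in KO, so the marker counts follow in part from that filter. The part of these marker differences in the results below was not tested. In RNA from a whole culture, fewer cells of a type and less RNA per cell cannot be told apart.

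The P450s that dominate a mature mouse liver were at or near 0. The ethanol-oxidizing Cyp2e1 reached at most 1.09 normalized counts in any library, the drug-oxidizing Cyp3a11 at most 5.56, and Cyp7a1, the rate-limiting enzyme of the classical bile acid route, at most 2.47. Cyp2c29, Cyp2f2, Cyp4a10, Cyp4a14 and the 8 genes of the Sult2a cluster, Sult2a1 to Sult2a8, had no read in any library. Of the 91 family genes left out, 47 had no read at all and 2 reached 10 in 1 to 3 libraries: Cyp8b1, a bile acid hydroxylase, with 18.6 at most, and Cyp2c67 with 10.2 at most. The members closest to the limit were Cyp1a2, at 10 or more in 4 libraries, and Cyp26a1 in 5.

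Per kilobase of exon, Sult1c2 and Ugt2b34 held the first 2 ranks in all 4 groups. In WT control the order was Sult1c2 at 1151 ± 30.7 normalized counts per kilobase (SD, n = 4), Ugt2b34 at 633 ± 22.2, Cyp20a1 at 554 ± 27.8 and Cyp1b1 at 403 ± 16.6, and none of these neighbours overlapped within 1 SD. In KO control it was Sult1c2 at 1458 ± 46.2, Ugt2b34 at 1268 ± 75.6, Cyp39a1 at 654 ± 7.51 and Cyp20a1 at 569 ± 21.4. In KO after palmitate Ugt2b34 came first at 2059 ± 96.4 per kilobase, ahead of Sult1c2 at 1432 ± 144. Cyp1b1 had rank 4 in both WT groups, rank 26 in KO control and rank 28 in KO after palmitate.

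**Figure D1:**
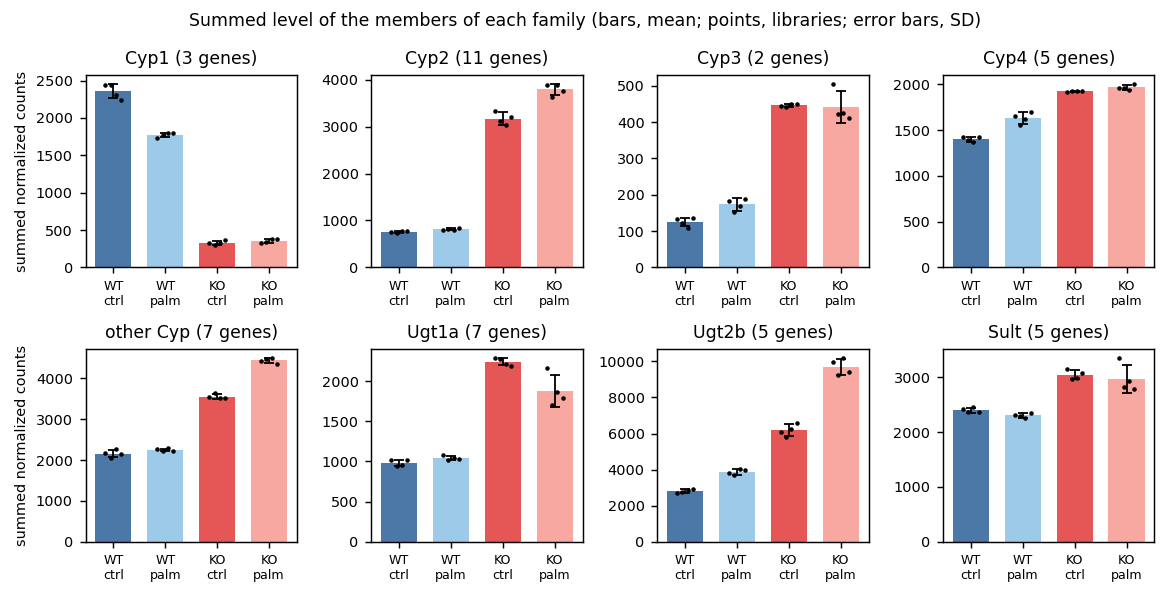
Summed normalized counts of the members of each family in the 4 groups (y axis, linear from 0; bars, mean; points, 4 libraries; error bars, SD). The mean Cyp1 sum was 2359 in WT control and 328 in KO control, while the sums of the other families were higher in KO.

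Most members were called different between KO and WT cells, as were most genes tested. In control, 28 members were called higher in KO and 10 lower (limma on log2(value + 1), Benjamini-Hochberg adjusted p under 0.05 over 15239 genes), which is 84.4% of members against 77.1% of all genes tested, of which 37.8% were higher and 39.3% lower. Of these calls, 33 were at least 2-fold, or 73.3% of members against 22.2% of all genes. Nothing is read from these shares, since 11 of the 28 and 2 of the 10 passed the level through a single genotype. Among the 31 members that reached 10 in libraries of both genotypes, 17 were higher, 8 lower and 6 neither. After palmitate, 30 members were higher and 13 lower, or 95.6% of members against 77.1% of all genes, of which 38.1% were higher and 39.0% lower. The 28 higher and 10 lower in control were called in the same direction after palmitate. For the 11 and 2 of them that passed the level through a single genotype, this follows from how they were chosen. The 2 comparisons share no library, but both set KO cells against WT cells, so the second is no independent check of the first. In control, all KO libraries were above all WT libraries for 28 members and below for 11, where 71.4% of all genes tested had no overlap. After palmitate this was so for 31 and 13 members, with 71.9% of all genes.

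**Figure D2:**
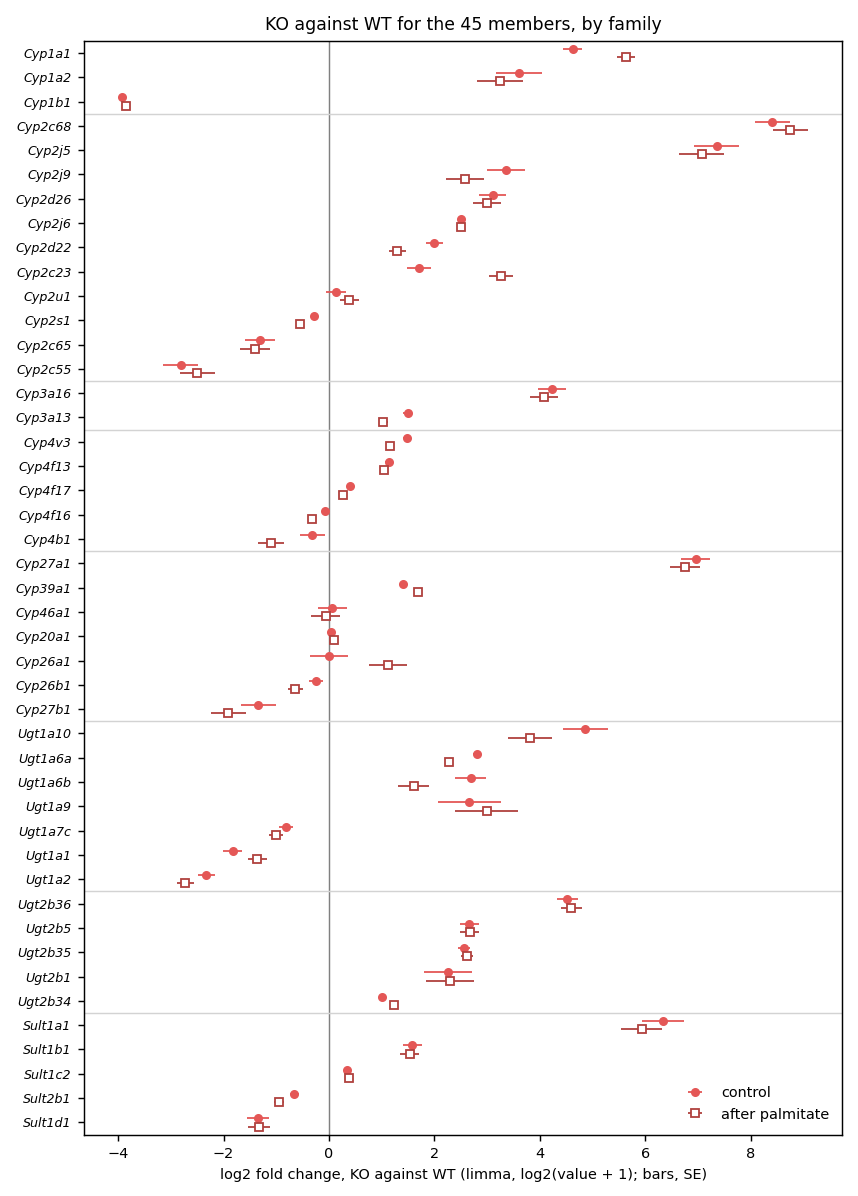
Log2 fold change of KO against WT (x axis, limma on log2(value + 1); bars, SE; 4 libraries per group) for the 45 members, grouped by family and sorted within each by the value in control. Filled circles are control and open squares are after palmitate. All 5 Ugt2b genes and both Cyp3a genes lie to the right of 0, whereas the Cyp1, Cyp2, Ugt1a and Sult families have members on both sides. Ugt2b1 and Cyp3a16 reached 10 in KO libraries only.

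The Cyp1 family split in opposite directions. Cyp1a1 and Cyp1b1 both oxidize aromatic hydrocarbons and are textbook targets of the aryl hydrocarbon receptor (AHR), and Cyp1b1 is known from mesenchymal cells and also oxidizes estrogens. Their RefSeq promoters (GRCm38.p6) are shown because the 2 genes share a regulator and moved apart. The sequences run from 250 bases before to 50 bases after the gene start in RefSeq, which for Cyp1a1 lies inside the GENCODE bounds given with its values, with the core of the AHR and ARNT site, GCGTG or CACGC, in capitals.
Cyp1a1 (chr9:57697363-57697662, plus strand): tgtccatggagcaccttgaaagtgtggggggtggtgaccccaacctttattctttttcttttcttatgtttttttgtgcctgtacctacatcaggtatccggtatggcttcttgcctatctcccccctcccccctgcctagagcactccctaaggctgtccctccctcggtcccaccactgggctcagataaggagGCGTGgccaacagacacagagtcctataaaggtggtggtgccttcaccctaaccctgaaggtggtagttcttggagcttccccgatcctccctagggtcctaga
Cyp1b1 (chr17:79715012-79715311, minus strand): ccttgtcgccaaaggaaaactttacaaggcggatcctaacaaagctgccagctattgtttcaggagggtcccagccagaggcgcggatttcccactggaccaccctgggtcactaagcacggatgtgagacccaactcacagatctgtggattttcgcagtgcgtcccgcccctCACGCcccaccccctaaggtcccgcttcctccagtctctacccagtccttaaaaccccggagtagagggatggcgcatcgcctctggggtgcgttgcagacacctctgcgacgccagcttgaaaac
The core stood at position -54 from the start in Cyp1a1 and, on the other strand, at -76 in Cyp1b1. This 5-base core, searched on both strands, is in 32.4% of 32851 RefSeq promoters of this length and in 11 of the 39 members that have one, so a match is common.

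Cyp1a1 (chr9:57687928-57703824, plus strand) was at 6.83, 6.36, 4.18 and 5.39 in WT control and 173, 147, 148 and 183 in KO control. After palmitate it was at 3.0, 3.62, 3.44 and 4.12 in WT and 203, 205, 254 and 237 in KO. As Cyp1a1 reached 10 in KO libraries only, the lack of overlap between the genotypes follows from how it was chosen. The ratio of its means after palmitate was 62.9-fold (95% counting interval 39 to 108). Its neighbour Cyp1a2, which oxidizes aromatic amines in hepatocytes and lies next to it in the opposite orientation, had 0 reads in the WT control libraries and 11.4 ± 2.73 (SD, n = 4) in KO control, at least 16-fold higher with the WT group set to a floor of 3 reads. Cyp1b1 (chr17:79701537-79715061, minus strand) went the other way, with 2431, 2437, 2308 and 2239 in WT control and 140.3, 142, 165 and 168 in KO control. All KO libraries were below all WT libraries (log2 fold change -3.93 ± 0.06, adjusted p = 2.3e-29), and the same held after palmitate, at 1734, 1764, 1790.3 and 1793 in WT and 115, 122, 117 and 131 in KO. The receptor itself, Ahr, differed far less, with 1394 ± 8.96 in WT control and 1934 ± 27 in KO control (log2 fold change 0.47 ± 0.03, adjusted p = 5.58e-14), and Tiparp, another AHR target, was at 396 ± 34.1 and 403 ± 18.1 (adjusted p = 0.71).

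**Figure D3:**
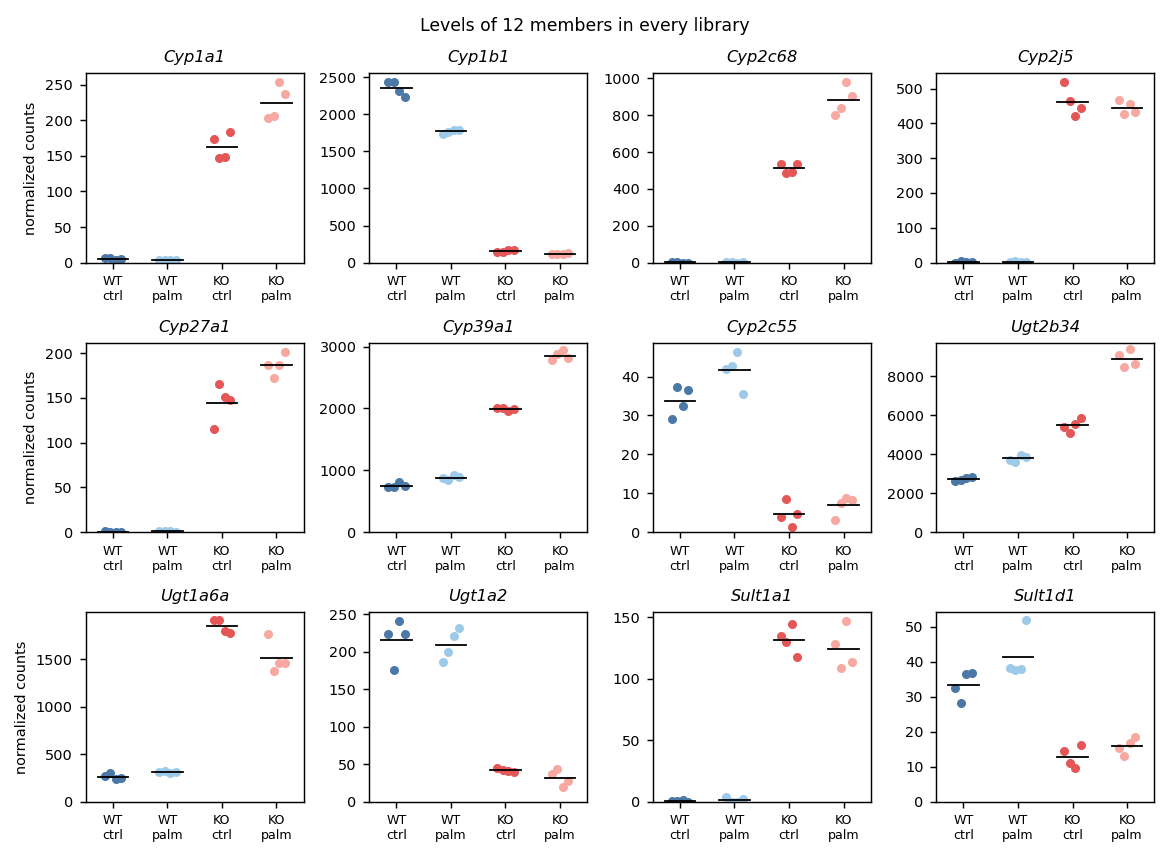
Normalized counts (y axis, linear from 0) of 12 members in each of the 16 libraries, with points for libraries and lines for the mean of 4. Cyp1a1, Cyp2c68, Cyp2j5, Cyp27a1 and Sult1a1 are at 6.83 or less in every WT library and at 109 or more in every KO library, while Cyp1b1, Cyp2c55, Ugt1a2 and Sult1d1 are lower in KO.

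Within the Cyp2 family, 7 of 11 members were higher in KO control, 3 were lower and Cyp2u1 was neither. Many enzymes of the Cyp2c and Cyp2j subfamilies turn arachidonic acid into epoxides or hydroxy acids that act on vessels and kidney, besides oxidizing drugs. Cyp2c68 had the largest fitted log2 fold change of the 45 members in control. It was at 0.85, 1.82, 0 and 0 in WT control and 533, 488, 492 and 537 in KO control. After palmitate the values were 2.0, 2.17, 0 and 0.82 in WT and 801, 838, 979 and 907 in KO. With 3 reads over the WT control group the ratio was 711-fold (95% counting interval 243 to 3450.0). Of the 76-base stretches of its transcript, 71.9% occur in no other gene, and 22.9% also occur in Cyp2c40. Part of the Cyp2c68 count could belong to that paralog, whose own value was 2.39 at most in any library. The promoter of Cyp2c68 is shown because it holds, in capitals, the HNF4 sequence CAAAGTCCA at -77 (searched on both strands).
Cyp2c68 (chr19:39741052-39741351, minus strand): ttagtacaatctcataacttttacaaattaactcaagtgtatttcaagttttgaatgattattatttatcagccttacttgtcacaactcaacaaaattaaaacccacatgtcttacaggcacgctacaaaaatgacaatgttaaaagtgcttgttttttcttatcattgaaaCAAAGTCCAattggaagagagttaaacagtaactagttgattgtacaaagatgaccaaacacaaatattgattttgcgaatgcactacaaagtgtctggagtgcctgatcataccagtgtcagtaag
The HNF4 sequence is in 0.475% of the 32851 promoters and in 4 of 39 members (Cyp2c65, Cyp2c68, Cyp3a16 and Sult1b1). Of the 4 members with the HNF4 sequence, Cyp2c65 was lower in KO and the other 3 were higher. Cyp2c68 and Cyp3a16 reached 10 in KO libraries only, so their direction follows from how they were chosen. A part of HNF4 in these differences was not tested.

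The Cyp2c genes did not move as a block along chromosome 19. Cyp2c55 and Cyp2c65 are neighbours, 18.3 kb apart and 595 kb from Cyp2c68, and both were lower in KO. Cyp2c55, which hydroxylates arachidonic acid, was at 29, 37.2, 32.4 and 36.6 in WT control and 3.93, 8.51, 1.2 and 4.75 in KO control. WT control exceeded KO control 7.31-fold (95% counting interval 4.35 to 13.1), and Cyp2c55 reached 10 in WT libraries only. Cyp2c65 was at 25.6, 20.9, 36.6 and 32.3 in WT control and 17.1, 10.9, 8.37 and 8.55 in KO control, and the groups did not overlap (log2 fold change -1.31 ± 0.28, adjusted p = 0.00011). Cyp2c23, a member of the subfamily known in rat kidney as an arachidonic acid epoxygenase, was higher in KO, with 16.2, 9.08, 10.4 and 14 in WT control and 36.7, 31.6, 59.8 and 44.6 in KO control (log2 fold change 1.71 ± 0.23, adjusted p = 1.33e-07). Its response to palmitate is given further on.

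The 3 members of the Cyp2j cluster on chromosome 4, which lie within 14.8 and 37.2 kb of each other, were all higher in KO. For Cyp2j5 and Cyp2j9, which reached 10 in KO libraries only, this follows from how the members were chosen. Cyp2j6 was the most abundant of them in WT, with a mean of 286 ± 17.6 in WT control against 1626 ± 64 in KO control (log2 fold change 2.50 ± 0.05, adjusted p = 1.15e-26). Cyp2j5, an epoxygenase of liver and kidney, was at 0, 5.45, 2.09 and 2.16 in WT control and 518, 464, 421 and 444 in KO control. That is a ratio of 191-fold (95% counting interval 104 to 399) from 10 reads in the WT group. Cyp2j9 averaged 2.94 ± 1.55 and 38 ± 7.44, a ratio of 13.3-fold (95% counting interval 7.34 to 26.3). None of the 3 shares a 76-base stretch with another gene.

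Cyp2d22 and Cyp2d26 belong to the subfamily whose human counterpart oxidizes many drugs. Cyp2d22 was at 17.1, 16.4, 18.8 and 15.1 in WT control and 72.1, 62, 69.4 and 77.9 in KO control, higher in all KO libraries (log2 fold change 2.00 ± 0.16, adjusted p = 5.84e-12). Cyp2d26 averaged 10.8 ± 4.49 in WT and 93.8 ± 10.7 in KO control (log2 fold change 3.10 ± 0.26, adjusted p = 2.98e-11). Cyp2s1, found in epithelia outside the liver, was slightly lower in KO, with 319, 339, 348 and 346 in WT control and 274, 286, 261 and 297 in KO control (log2 fold change -0.28 ± 0.07, adjusted p = 0.000554). Cyp2u1, a hydroxylase of long-chain fatty acids, was at 32.4, 29.98, 22 and 30.2 in WT control and 23.6, 27.9, 40.7 and 35.1 in KO control. The ranges overlapped and the difference missed the threshold, with a 95% interval of -0.22 to 0.49 on the log2 scale.

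Both Cyp3a members were higher in KO, although Cyp3a11 was not detected above 5.56. Cyp3a enzymes oxidize steroids, bile acids and drugs, and Cyp3a16 is a form of the fetal mouse liver. Cyp3a16 averaged 5.28 ± 3.14 in WT control and 108 ± 8.4 in KO control, and reached 10 in KO libraries only. Cyp3a13 was at 129.8, 119.9, 104 and 126 in WT control and 346, 327, 336 and 344 in KO control, without overlap (log2 fold change 1.50 ± 0.08, adjusted p = 6.82e-16).

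The Cyp4 enzymes hydroxylate the end of fatty acid chains, and their median log2 fold change in control was 0.40. Of the 5 members, Cyp4v3, Cyp4f13 and Cyp4f17 were higher in KO control, and Cyp4f16 and Cyp4b1 were not called. Cyp4v3 averaged 121 ± 6.11 and 338 ± 28.9 (log2 fold change 1.48 ± 0.08, adjusted p = 8.7e-16), Cyp4f13 204 ± 19.96 and 447 ± 13.7, and Cyp4f17 339 ± 18.2 and 447 ± 12.5. Cyp4f16, 6.41 kb from Cyp4f17, was at 715, 690.4, 709 and 682 in WT control and 649, 667, 654 and 680.05 in KO control, where the difference was not called (adjusted p = 0.131). After palmitate it was at 841, 748, 776 and 838 in WT and 601, 626, 654 and 678 in KO, lower in every KO library (log2 fold change -0.32 ± 0.05, adjusted p = 3.72e-07). Cyp4b1, which activates lung toxins, was at 36.7, 40.9, 34.5 and 38.8 in WT control and 28.9, 24.3, 35.9 and 32.3 in KO control. It was called lower in KO after palmitate, at 34, 30.4, 25.8 and 42.1 in WT and 20.4, 8.69, 11.1 and 23.2 in KO (log2 fold change -1.10 ± 0.24, adjusted p = 0.000169).

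Of the P450s of sterol and bile acid metabolism, Cyp27a1 and Cyp39a1 were higher in KO. Cyp27a1 reached 10 in KO libraries only, so its direction follows from how it was chosen. Cyp27a1, the mitochondrial enzyme that starts the alternative bile acid route by hydroxylating the cholesterol side chain, was at 0.85, 0, 0 and 0 in WT control and 115, 165, 151 and 147 in KO control. After palmitate it was at 1.0, 1.45, 0.86 and 0 in WT and 187, 173, 187 and 202 in KO. A single read over the WT control group gave a ratio of 604-fold (95% counting interval 108 to 23900.0), and 4 reads over WT palmitate gave 223-fold (95% counting interval 86.7 to 821). Cyp39a1, which hydroxylates the oxysterol that Cyp46a1 makes from cholesterol, was well expressed in both, with 728, 727, 805 and 740.4 in WT control and 2008, 2015, 1963 and 1996 in KO control. All KO libraries were above all WT libraries (log2 fold change 1.41 ± 0.04, adjusted p = 1.48e-23). Cyp46a1 itself was at 17.9, 15.4, 8.36 and 9.7 in WT control and 15.7, 8.51, 10.8 and 19 in KO control, with overlapping ranges and a 95% interval of -0.47 to 0.61 on the log2 scale. Cyp7b1, the usual partner of Cyp27a1 in the alternative route, reached at most 6.27 and is no member.

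The retinoic acid hydroxylases and the vitamin D activating enzyme were low. Cyp26b1 was at 93.9, 96.3, 91 and 112 in WT control and 82.6, 63.2, 95.7 and 93.1 in KO control, a difference that was not called (adjusted p = 0.107). After palmitate it was at 112, 144, 124 and 133 in WT and 77.3, 97.8, 64.5 and 92 in KO and was called lower in KO (log2 fold change -0.64 ± 0.14, adjusted p = 0.00014). Cyp26a1 averaged 7.68 ± 1.91 in WT control and 8.51 ± 4.47 in KO control, and 4.7 ± 1.5 and 11.1 ± 1.58 after palmitate. Cyp27b1, which activates vitamin D, was at 17.9, 9.08, 12.6 and 24.8 in WT control and 5.25, 4.86, 3.59 and 8.55 in KO control. WT control exceeded KO control 2.76-fold (95% counting interval 1.65 to 4.8), and Cyp27b1 reached 10 in WT libraries only. Cyp20a1, an orphan P450 of unknown substrate, was not called in control, with 1266 ± 63.6 in WT and 1302 ± 48.8 in KO. Its call as higher in KO after palmitate (log2 fold change 0.10 ± 0.04, adjusted p = 0.0214) was lost without replicate 1 of KO palmitate (adjusted p = 0.0896) or replicate 4 of WT palmitate (0.0606), and the log2 fold change was 0.002 with values rescaled to the same total per library.

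The Ugt1a genes on chromosome 1 share their last exons and differ in their first exon and promoter. Ugt1a1 conjugates bilirubin and the Ugt1a6 enzymes conjugate simple phenols. Because of the shared 3' part, only 25.4% (Ugt1a6b) to 48.9% (Ugt1a6a) of the 76-base stretches of each member occur in no other gene, so the division of reads among the 7 members depends on the counting and each value below is uncertain. The sum of the 7 does not depend on how reads were divided among them and was 982 ± 36.4 in WT control and 2243 ± 45.2 in KO control (SD, n = 4). The sum was 1043 ± 27.3 in WT and 1882 ± 202 in KO after palmitate, without overlap between the genotypes in either condition.

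Within that higher total, 4 Ugt1a members were higher in KO control and 3 were lower. Of the 4, Ugt1a10 and Ugt1a9 reached 10 in KO libraries only, so their direction follows from how they were chosen. Ugt1a6a was at 268, 299, 242 and 246 in WT control and 1906, 1908, 1796 and 1775 in KO control, and held most of the sum in KO (log2 fold change 2.81 ± 0.07, adjusted p = 2.41e-21). Ugt1a10 had no read in WT control and was at 26.2, 23.1, 28.7 and 36.1 in KO control, at least 40.3-fold higher with the WT group at a floor of 3 reads. Ugt1a6b averaged 23.4 ± 14.4 in WT control and 139.8 ± 20.4 in KO control, and Ugt1a9 3.37 ± 2.82 and 24.7 ± 13.5. The opposite held for the members nearest the shared end. Ugt1a1 was at 388, 361, 349 and 434 in WT control and 82.6, 94.8, 118 and 139.6 in KO control, lower in all KO libraries (log2 fold change -1.83 ± 0.18, adjusted p = 1.28e-07). Ugt1a2 was at 224, 175, 242 and 223 in WT control and 44.6, 42.5, 40.7 and 39.9 in KO control (log2 fold change -2.33 ± 0.16, adjusted p = 5.48e-13). Ugt1a7c, at 104, 97.2, 78.4 and 90.5 in WT control and 63, 43.8, 44.3 and 59.8 in KO control, was also lower (log2 fold change -0.81 ± 0.14, adjusted p = 5.86e-06). The leading WT member of the locus was thus Ugt1a1 and the leading KO member Ugt1a6a.

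**Figure D4:**
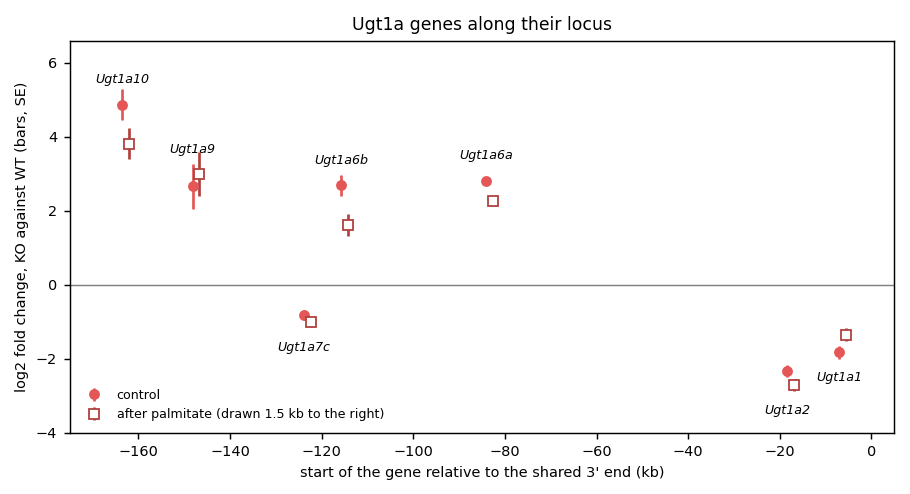
Log2 fold change of KO against WT (y axis, limma; bars, SE; 4 libraries per group) for the 7 Ugt1a members against the distance of the gene start from the shared 3' end (x axis, kb; the end of Ugt1a1). Ugt1a10, Ugt1a9, Ugt1a6b and Ugt1a6a, which start 163.6 to 84.2 kb before the end, are above 0, except that Ugt1a7c among them at 123.9 kb is below 0 with Ugt1a2 and Ugt1a1 at 18.4 and 7.0 kb.

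All 5 Ugt2b members, which conjugate steroids and bile acids and lie together on chromosome 5, were higher in KO in both conditions. For Ugt2b1, which reached 10 in KO libraries only, this follows from how the members were chosen. Ugt2b34 was by far the most abundant, at 2645, 2655, 2781 and 2839.9 in WT control and 5379, 5082, 5546 and 5863 in KO control (log2 fold change 1.00 ± 0.04, adjusted p = 5.33e-17). Ugt2b36 showed the widest gap, at 14.5, 7.27, 11.5 and 22.6 in WT control and 327, 343, 304 and 309 in KO control (log2 fold change 4.52 ± 0.20, adjusted p = 7.34e-16). Ugt2b35 was at 38.4, 52.7, 50.2 and 52.8 in WT control and 279, 269, 289.5 and 317 in KO control, again with every KO library higher (log2 fold change 2.56 ± 0.12, adjusted p = 8.7e-18). Ugt2b5 averaged 15.1 ± 2.81 and 100 ± 11.2. Of its 76-base stretches, 28.2% also occur in Ugt2b38, to which no read was assigned in any library. Ugt2b1 averaged 2.71 ± 1.89 and 16.5 ± 6.68, a ratio of 6.2-fold (95% counting interval 3.22 to 13.1). The family sum was 2811 ± 104 in WT control and 6193 ± 331 in KO control, of which Ugt2b34 made up the greater part in both.

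The sulfotransferases again split. Sult1a1, which sulfates phenols, was at 0.85, 0.91, 1.05 and 0 in WT control and 135, 130.02, 145 and 118 in KO control. After palmitate it was at 4.0, 0, 0 and 2.47 in WT and 128, 109, 147 and 113 in KO. The 3 reads over the WT control group gave a ratio of 181-fold (95% counting interval 61.7 to 883). Sult1a1 reached 10 in KO libraries only, so its direction follows from how it was chosen. Sult1b1 and Sult1d1 are neighbours 16.4 kb apart on chromosome 5 and went opposite ways. Sult1b1, which acts on thyroid hormones, averaged 23.9 ± 6.9 in WT control and 71.7 ± 3.92 in KO control (log2 fold change 1.58 ± 0.17, adjusted p = 3.14e-09), whereas Sult1d1, a sulfotransferase of catecholamines in mice, was at 32.4, 28.2, 36.6 and 36.6 in WT control and 14.4, 10.9, 9.57 and 16.1 in KO control (log2 fold change -1.34 ± 0.21, adjusted p = 1.62e-06). Sult2b1, which sulfates cholesterol and oxysterols, was at 225, 223, 202 and 221 in WT control and 129.8, 126, 144 and 153 in KO control, lower in every KO library (log2 fold change -0.66 ± 0.09, adjusted p = 2.08e-07). Sult1c2 was the most abundant in all groups and differed little, with 2125 ± 56.6 in WT and 2691 ± 85.3 in KO control (log2 fold change 0.34 ± 0.05, adjusted p = 4.46e-07).

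Fewer members were called with palmitate than between KO and WT cells, where the level filter favoured a difference for some members. The same held over all genes tested, of which 77.1% were called between KO and WT in control. In WT, 13 members rose and 2 fell, or 33.3% of members against 37.6% of all genes tested (17.7% higher and 19.9% lower), and none of the 15 changed 2-fold (0.702% of all genes did). In KO, 8 rose and 6 fell, or 31.1% against 39.1% (18.7% higher and 20.4% lower), and 1 of them, Cyp2c23, changed at least 2-fold (1.04% of all genes did). In WT, 28.9% of members rose and 4.44% fell, and in KO 17.8% rose and 13.3% fell. Treated and control libraries did not overlap for 12 members that were higher and 3 that were lower in WT (37.1% of all genes) and for 10 and 5 in KO (33.8% of all genes). Cyp2j6, Cyp39a1, Cyp4f17, Ugt2b34 and Ugt2b35 were called higher in both genotypes and Cyp1b1 lower in both. Cell markers moved as well: of 10 tested hepatocyte markers 3 were higher and 1 lower with palmitate in WT and 4 were higher in KO, and of 14 progenitor and cholangiocyte markers 3 were higher and 2 lower in WT and 3 higher and 7 lower in KO. The summed level of fibroblast and stellate markers was 158433 to 168640 normalized counts in WT control and 137866 to 143776 after palmitate, with 1 of 10 tested markers lower (Acta2, log2 fold change -0.78, adjusted p = 0.000539), and 2842 to 3993 and 2990 to 3227 in KO. That of macrophage and leukocyte markers was 1614 to 1713 in WT control and 2010 to 2055 after palmitate, with all 4 tested markers higher. In KO it was 2718 to 2909 in control and 2972 to 3375 after palmitate, with 1 of 4 higher. Their part in the responses was not tested.

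**Figure D5:**
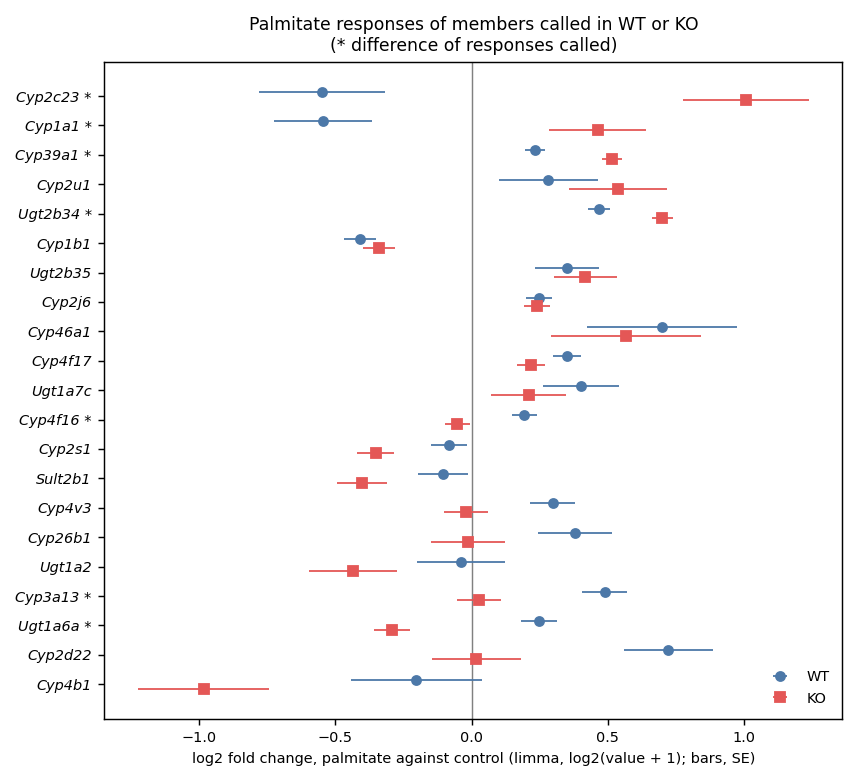
Log2 fold change of palmitate against control (x axis, limma on log2(value + 1); bars, SE; 4 libraries per group) in WT (circles) and KO (squares) for the 21 members called in either genotype, sorted by the difference of the responses. A star marks the 7 members whose responses differed at an adjusted p under 0.05; Cyp2c23 and Cyp1a1 at the top lie on opposite sides of 0, as does Ugt1a6a near the bottom.

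Ugt2b34 rose in both genotypes. It went from 2645, 2655, 2781 and 2839.9 to 3695, 3592, 3949 and 3858 in WT and from 5379, 5082, 5546 and 5863 to 9074, 8467, 9367 and 8609.7 in KO. Every treated library was above every control library of its genotype, and the log2 fold change was 0.47 ± 0.04 in WT (adjusted p = 3.36e-09) and 0.70 ± 0.04 in KO (1.94e-12). Cyp39a1 rose from 728, 727, 805 and 740.4 to 881, 837, 917 and 888 in WT and from 2008, 2015, 1963 and 1996 to 2779, 2876, 2950.2 and 2811 in KO (0.23 ± 0.04 and 0.52 ± 0.04, adjusted p = 1.03e-05 and 6.62e-12). Both genes thus rose in both genotypes and more in KO: the difference of responses was 0.28 ± 0.05 for Cyp39a1 (adjusted p = 0.000527) and 0.23 ± 0.06 for Ugt2b34 (0.0095, and 0.0515 in limma without the trend and robust settings). Cyp2j6 rose by nearly the same amount in both, 0.25 ± 0.05 and 0.24 ± 0.05 on the log2 scale, with a difference of -0.01 ± 0.07 and a 95% interval of -0.14 to 0.13. Cyp4f17 changed by 0.35 ± 0.05 in WT and 0.22 ± 0.05 in KO. Ugt2b35 was at 75.1, 51.5, 61 and 61 in WT and 454, 374, 367 and 353 in KO after palmitate (0.35 ± 0.12 and 0.42 ± 0.12). Its WT call was lost without WT control replicate 1 (adjusted p = 0.101) or WT palmitate replicate 1 (0.0893) and with edgeR (0.0586) and DESeq2 (0.0574). That call was also lost with quantile normalization (0.0897) and with only the groups compared (0.0634).

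Cyp1b1 fell in both genotypes. The WT values went from 2431, 2437, 2308 and 2239 to 1734, 1764, 1790.3 and 1793 and the KO values from 140.3, 142, 165 and 168 to 115, 122, 117 and 131 (-0.41 ± 0.06 and -0.34 ± 0.06, adjusted p = 2.05e-06 and 2.66e-05). Control and treated libraries did not overlap in either. Cyp1a1, by contrast, fell in WT from 6.83, 6.36, 4.18 and 5.39 to 3.0, 3.62, 3.44 and 4.12 and rose in KO from 173, 147, 148 and 183 to 203, 205, 254 and 237. The WT values come from 24 reads in control and 17 after palmitate, a ratio of 1.61-fold (95% counting interval 0.832 to 3.2) whose interval includes 1, and the WT call (adjusted p = 0.0167) was lost with a pseudocount of 5 (0.0712), in edgeR (0.221), in DESeq2 (0.252), with only the groups compared (0.233) and without WT control replicate 1 (0.0562). The KO call (adjusted p = 0.0413) was lost in 4 alternatives and without any 1 of 6 libraries, namely KO control replicates 1 (0.0598), 2 (0.115) and 3 (0.109) and KO palmitate replicates 2 (0.0573), 3 (0.134) and 4 (0.103), although all 4 treated KO libraries were above all controls. The difference of responses was 1.01 ± 0.25 (adjusted p = 0.00976; 0.0884 in edgeR and 0.101 in DESeq2).

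Some members rose in WT and were not called in KO. Cyp3a13 went from 129.8, 119.9, 104 and 126 to 180.2, 146, 163 and 184 in WT, without overlap (log2 fold change 0.49 ± 0.08, adjusted p = 2.3e-05), and from 346, 327, 336 and 344 to 372, 342, 336 and 329.8 in KO (0.03 ± 0.08). The responses differed by -0.46 ± 0.12 (adjusted p = 0.00941). Cyp4f16 rose in WT (log2 fold change 0.19 ± 0.05, adjusted p = 0.00134) and had a log2 fold change of -0.05 ± 0.05 in KO, a difference of -0.25 ± 0.07 (adjusted p = 0.0145). Cyp2d22 rose in WT from 17.1, 16.4, 18.8 and 15.1 to 36, 25.4, 27.5 and 25.6 (log2 fold change 0.72 ± 0.16, adjusted p = 0.000769) and was at 81.4, 60.9, 76.7 and 66.9 in treated KO (0.02 ± 0.16), but its difference of -0.70 ± 0.23 missed the threshold (adjusted p = 0.0503) and passed it in 5 alternatives and without WT control replicate 3 (0.0457), KO control replicate 2 (0.0497) or KO palmitate replicate 1 (0.0388). Cyp4v3 also rose in WT (log2 fold change 0.30 ± 0.08, adjusted p = 0.00452); the difference of its responses, -0.32 ± 0.12, was not called (adjusted p = 0.0804; 0.033 without KO palmitate replicate 1).

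Cyp26b1, Cyp46a1 and Ugt1a7c rose in WT only narrowly past the threshold. Cyp26b1 went from 93.9, 96.3, 91 and 112 to 112, 144, 124 and 133 (log2 fold change 0.38 ± 0.14, adjusted p = 0.0302). Cyp46a1 went from 17.9, 15.4, 8.36 and 9.7 to 25, 18.9, 24.1 and 15.7 (log2 fold change 0.70 ± 0.28, adjusted p = 0.0465), and Ugt1a7c from 104, 97.2, 78.4 and 90.5 to 114, 118, 125 and 131 (log2 fold change 0.40 ± 0.14, adjusted p = 0.0233). Over the alternatives the adjusted p ranged over 0.005 to 0.105 for Cyp26b1, 0.0216 to 0.164 for Cyp46a1 and 0.00348 to 0.0921 for Ugt1a7c. The Cyp26b1 call was lost without WT control replicate 1 (0.0692), 2 (0.0608) or 3 (0.0787) and without WT palmitate replicate 2 (0.105) or 4 (0.0711). The Ugt1a7c call was lost without WT control replicate 3 (0.0921) and without WT palmitate replicate 3 (0.0531) or 4 (0.0696). The Cyp46a1 call was lost without any 1 of 8 libraries, with 0.164 without WT control replicate 3, 0.12 without WT control replicate 4, 0.122, 0.0643 and 0.119 without WT palmitate replicates 1, 2 and 3, and 0.0506, 0.051 and 0.0512 without KO palmitate replicates 2, 3 and 4. It was also lost in DESeq2 (0.0909) and edgeR (0.0527), without the level filter (0.0809), and with a pseudocount of 0.5 (0.0517). Quantile normalization lost the calls of Cyp46a1 (0.0737), Cyp26b1 (0.0646) and Ugt1a7c (0.0659). The Cyp26b1 call was also lost without the level filter (0.0528) and in limma without the trend and robust settings (0.0575).

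Cyp2c23 showed the largest difference between the responses among the members. In KO it rose from 36.7, 31.6, 59.8 and 44.6 to 75.3, 76.1, 116 and 79.9, without overlap (log2 fold change 1.01 ± 0.23, adjusted p = 0.000889). In WT it was at 16.2, 9.08, 10.4 and 14 and then at 7.01, 10.2, 8.6 and 6.6, lower but not called (log2 fold change -0.55 ± 0.23, adjusted p = 0.0627) but passed without WT control replicate 2 (adjusted p = 0.0316) or WT palmitate replicate 2 (0.0423). The difference of responses was 1.55 ± 0.33 (adjusted p = 0.00213, 0.000965 to 0.00933 over the alternatives). Replicate 3 of KO palmitate, at 115.7, was well above the other 3. Cyp2u1 rose in KO from 23.6, 27.9, 40.7 and 35.1 to 47.8, 42.4, 44.5 and 48.3 (log2 fold change 0.54 ± 0.18, adjusted p = 0.0194), a call lost without KO control replicate 1 (0.0901) or 2 (0.0557) and in DESeq2 (0.0528).

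Whether the response of Cyp2c68 in KO was called depended on the fit and its settings. All 4 treated KO libraries (801, 838, 979 and 907) were above all KO controls (533, 488, 492 and 537), with a log2 fold change of 0.78 ± 0.33. The adjusted p was 0.0747 in the model of all 4 groups, in which WT libraries at 0 to 2.17 normalized counts also enter. It was 0.0325 without WT control replicate 2 and 0.0202 without WT palmitate replicate 3. It was 2.17e-10 in the fit of KO libraries alone. With all 16 libraries it was 3.14e-05 with a pseudocount of 5, 0.0449 with quantile normalization and 0.0318 with the replicate block. In edgeR it was 6.18e-12 and in DESeq2 2.58e-23, also with all 16 libraries.

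Ugt1a6a went in opposite directions in the genotypes. In WT it rose from 268, 299, 242 and 246 to 312, 327, 300.1 and 309 (log2 fold change 0.25 ± 0.07, adjusted p = 0.00501; 0.0515 in edgeR), and in KO it fell from 1906, 1908, 1796 and 1775 to 1763, 1373, 1456 and 1461 (log2 fold change -0.29 ± 0.07, adjusted p = 0.00117). The treated KO libraries were all below the controls, whereas the lowest treated WT library was above all controls. The difference was -0.54 ± 0.10 (adjusted p = 0.000579). The sum of the locus moved the same way in KO, from 2194 to 2289 in control to 1704 to 2167 after palmitate, with replicate 1 at the top. Ugt1a2 fell in KO from 44.6, 42.5, 40.7 and 39.9 to 36.6, 43.5, 20.02 and 27.9 (log2 fold change -0.43 ± 0.16, adjusted p = 0.0342), but the groups overlapped and the adjusted p ranged over 0.00298 to 0.2. The call was lost without KO control replicate 1 (0.0833), 2 (0.069) or 3 (0.0542) and without KO palmitate replicate 3 (0.2) or 4 (0.0934). It was also lost in DESeq2 (0.126), edgeR (0.121) and limma without the trend and robust settings (0.0759). The same held without the level filter (0.0521) and with only the groups compared (0.102).

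Cyp4b1, Sult2b1 and Cyp2s1 fell in KO. Cyp4b1 went from 28.9, 24.3, 35.9 and 32.3 to 20.4, 8.69, 11.1 and 23.2 (log2 fold change -0.98 ± 0.24, adjusted p = 0.00165), Sult2b1 from 129.8, 126, 144 and 153 to 90.5, 104, 102 and 121 (log2 fold change -0.40 ± 0.09, adjusted p = 0.000727) and Cyp2s1 from 274, 286, 261 and 297 to 213, 216, 221 and 224 (log2 fold change -0.35 ± 0.07, adjusted p = 0.000116). Their WT log2 fold changes were -0.20 ± 0.24, -0.10 ± 0.09 and -0.08 ± 0.07, none called. The differences of -0.78 ± 0.34, -0.30 ± 0.13 and -0.27 ± 0.10 were not called either (adjusted p = 0.156, 0.15 and 0.071), although that of Cyp2s1 passed with the replicate block (adjusted p = 0.0487) and without WT palmitate replicate 1 (-0.32, adjusted p = 0.0267). In all, 7 members had responses that differed between the genotypes, 4 higher and 3 lower in KO, or 15.6% against 9.9% of all genes tested (4.19% higher and 5.71% lower).

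Enzymes and receptors that work with these families differed too, and are described by counts. Beside these counts, 37.8% of all genes tested were higher in KO control and 39.3% lower. A gene could reach the level asked for through 1 genotype alone, so counts and medians over tested genes follow in part from that filter. Of 38 listed genes for other oxidation and hydrolysis of foreign compounds 30 were tested, and 23 of these were higher in KO control and 4 lower, with a median log2 fold change of 1.49 against -0.008 over all genes. Maob, a monoamine oxidase, was at 2.18 ± 1.57 and 967 ± 30.2. The carboxylesterases Ces1d and Ces1g were at 0 in all WT libraries and at 22.9 ± 3.21 and 11.9 ± 2.19 normalized counts in KO control (SD, n = 4), and the epoxide hydrolase Ephx1 at 1356 ± 29.4 and 12029 ± 229 (log2 fold change 3.15 ± 0.03, adjusted p = 2.98e-33). Of 18 tested receptors and factors among 22 listed, 13 were higher and 3 lower (median 0.73). Hnf4a, a master regulator of hepatocyte genes, was at 1809.9 ± 63.1 in WT control and 9993 ± 135 in KO control (log2 fold change 2.46 ± 0.03, adjusted p = 1.66e-30), the lipid sensor Ppara at 10.3 ± 3.27 and 132 ± 12.6, and the bile acid receptor Nr1h4 at 235 ± 4.82 and 613 ± 20.1. The estrogen receptor Esr1 was lower, at 17 ± 7.57 and 0.902 ± 1.15. Of 8 tested genes of bile acid synthesis outside the P450s among 12 listed, 6 were higher and 2 lower (median 0.41), among them Acox2, which shortens the side chain, at 19 ± 4.45 and 607 ± 79.96, and the cholesterol hydroxylase Ch25h at 113 ± 14 and 17.8 ± 6.09.

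Genes that supply electrons, haem and cosubstrates were counted in the same way. Of 19 genes for electron transfer and haem, 8 were higher in KO control and 6 lower (median 0.04). Por, the reductase that serves the microsomal P450s, rose with palmitate in both genotypes, from 2584 ± 104 to 3213 ± 102 in WT and from 3205 ± 102 to 4108 ± 132 in KO (log2 fold change 0.31 ± 0.03 and 0.36 ± 0.03). Of 7 genes for UDP-glucuronic acid, 4 were higher and 3 lower (median 0.68), and Ugdh, which makes that cosubstrate, was at 4993 ± 103 and 12029 ± 103 (log2 fold change 1.27 ± 0.03, adjusted p = 8.02e-26). Of 11 tested genes for PAPS and sulfate, 6 were higher and 5 lower (median 0.18). Both PAPS synthases were lower in KO, Papss1 with a log2 fold change of -0.31 ± 0.03 and Papss2 with -0.69 ± 0.07. With palmitate, 12 of the 18 receptors and factors rose in WT and Ahr fell (17.7% and 19.9% of all genes), and 7 rose and 3 fell in KO (18.7% and 20.4%). Of the 30 genes of other oxidation and hydrolysis, 11 rose and 2 fell in WT, and 8 rose and 2 fell in KO. Nr1h4 rose in WT and fell in KO (0.16 ± 0.05 and -0.15 ± 0.05; difference -0.31 ± 0.08, adjusted p = 0.00737).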

How the data were processed

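Total RNA of 16 samples was depleted of ribosomal RNA and sequenced as paired reads of 76 bases, per the labels' protocols. These protocols also call the input FFPE RNA of low quality, although the source is cultured cells. STAR, RSEM, DESeq2 and limma are named without versions or roles in the submitters' processing notes. Genome build and strand setting were not given in the sources used here, so reads of a gene and an antisense partner cannot be told apart. The authors deposited 1 table of normalized counts (a signal scaled between libraries), and its values were whole numbers of reads times 1 factor per library (within 0.1 reads for at least 99.9952% of values in each library). The recovered reads gave depths of 21553952 to 35693442 per library. Intervals and floors cover counting error only, as reads without molecular identifiers are not independent molecules.

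Values were analysed as log2(value + 1) with limma 3.58.1 in R 4.3.3 (trend and robust settings, 1 model of 4 group means) over 15239 genes at 10 or more in at least 4 libraries, with Benjamini-Hochberg adjusted p under 0.05 as the call. Fold changes on this scale understate those of low genes. edgeR 4.0.16 and DESeq2 1.42.0 on the recovered reads were alternatives, besides other pseudocounts, filters, scalings, the replicate number as a block, and each library left out. The steps were tested on simulated data. Members and lists were chosen with earlier results of these data known. Values by library are given for Ptpn1. In each comparison of 2 groups, they are given for the 6 called members with the largest rise and the 6 with the largest fall. They are also given for the 4 highest and 4 lowest called differences of responses. For Ptpn1 and for some members of KO against WT after palmitate, not all palmitate values are printed. Genes named from a pathway list are among its 3 called genes with the largest absolute change in a comparison, not all of which are printed. Ahr, Tiparp, Papss1, Papss2 and Hnf4a, the genotype values of Ephx1 and Nr1h4 and the palmitate values of Nr1h4 were added after their values were seen. Gene positions are from GENCODE vM21 (GRCm38), matched by identifier for 55240 of 55421 genes, and promoters from RefSeq.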

Additional observations from a re-analysis of the deposited data

Results flagged for a closer look

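Among 180 groups of 4 libraries, 13 held a library with a gap to the nearest other above the 95% critical value of Dixon's test, and chance flags about 1 in 20 groups. In KO palmitate replicate 1 these were Cyp1a2 at 14.24, Cyp2j6 at 2077.54 and Ugt2b5 at 140.4 normalized counts, and this library also stood furthest from the others of its group over all genes. Cyp2c23 stood at 115.65 in KO palmitate replicate 3 and Cyp2d26 at 94.75 in replicate 4. In WT palmitate, Cyp1a2 was apart at 0.72 in replicate 2, Ugt1a10 at 2.0 in replicate 1, Cyp4v3 at 167.68 and Sult2b1 at 190.03 in replicate 3, and Sult1d1 at 51.97 and Ugt2b1 at 4.95 in replicate 4. In WT control, Cyp27a1 was apart at 0.85 in replicate 1, the single read of its group, and Sult2b1 at 201.78 in replicate 3. The WT palmitate values of Cyp1a2 and Ugt1a10 come from 1 and 2 reads. For these 2 and Cyp27a1 the other libraries of the group were at 0, so any read there is flagged.

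The responses to palmitate differed between the genotypes in 7 members (limma, interaction of genotype and palmitate, adjusted p under 0.05). The KO response exceeded the WT response by 1.55 on the log2 scale for Cyp2c23, 1.01 for Cyp1a1, 0.28 for Cyp39a1 and 0.23 for Ugt2b34. It was below the WT response for Ugt1a6a (-0.54), Cyp3a13 (-0.46) and Cyp4f16 (-0.25).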

How the results depend on the processing

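No called value of a member changed sign in the alternatives in which it could be tested (up to 11, or any 1 of 16 libraries left out), while some values that were not called crossed 0, such as Cyp26a1 by genotype in control (-0.24 to 0.39). A filter on a mean of at least 20 left 23 members higher and 8 lower in KO control and 24 and 11 after palmitate, since it drops low members. In the alternatives that tested a member, all 38 genotype calls in control were kept, as were 42 of 43 after palmitate, 9 of 15 palmitate calls in WT, 11 of 14 in KO and 5 of 7 differences of responses, and where a call was lost the cause was not tested. In some alternative, 2 members gained a genotype call in control and 1 after palmitate. Palmitate calls were gained by 6 members in WT and 9 in KO, and calls of the difference by 6. Among those gained in KO, edgeR, DESeq2 and the fit of KO libraries alone all called Cyp27a1 and Cyp2c68 higher and Cyp2j9 and Ugt1a6b lower. Members called lower with palmitate in WT were 2, but 1 with a pseudocount of 5, with edgeR, with DESeq2 and with only the groups compared. The differences called higher were 4, but 2 with DESeq2, and those called lower were 3, but 6 with the replicate block. Quantile normalization gave 9 rather than 13 members higher with palmitate in WT. Leaving out 1 library gave 28 higher and 10 lower by genotype in control, 29 to 31 and 13 after palmitate, 11 to 13 higher and 1 to 4 lower with palmitate in WT, 6 to 10 and 5 to 8 in KO, and 4 to 5 and 3 to 5 for the difference. The count lower in WT was 1 without WT control replicate 1 and 4 without WT control replicate 2, and the lower differences were 5 without WT control replicate 3 or KO palmitate replicate 1.

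The replicate numbers did not pair the libraries: same-numbered libraries had correlated deviations over 0.1 in 4 of 24 pairs (-0.24 to 0.23), and 4 of 16 libraries correlated best with their own number. With the replicate block, 28 members were higher and 10 lower in KO control, 30 and 13 after palmitate, 13 and 2 with palmitate in WT, 8 and 7 in KO, and 4 and 6 for the difference. Rescaling to the same total per library moved the share of all called genes that were higher from 47.1% to 61.7% for palmitate in WT and from 42.3% to 30.0% for the difference, while the members stood at 13 and 2, and at 4 and 4. Over all genes, edgeR called 5649 higher and 6109 lower by genotype in control, 2880 and 3351 with palmitate in WT, and 704 and 898 for the difference.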
